A study of Drosophila melanogaster with 2 samples.

Results

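The X chromosome carried 494 of the 2862 peaks (17.3%) that passed the authors' threshold in a chromatin immunoprecipitation sequencing (ChIP-seq) experiment on Fer2 in Drosophila melanogaster embryos. A peak was counted as an X peak if its row in the thresholded list named the X chromosome; the other 2368 peaks lay on the autosomes. The material was whole embryos, 6 to 24 h old, of a transgenic line that stably expressed Fer2 carrying GFP at its C-terminus, and the chromatin was precipitated with an antibody against GFP. There was a single group of 2 biological replicates, numbered 2 and 3 by the submitters, with no other genotype or treatment, and the sex of the embryos was not collected. What drives the transgene is not given in the sources used here. The tag is the same in both replicates, both were called against the same control, and the lists hold no read counts, so the sequencing depth behind a peak is unknown. The comparisons below therefore set X peaks against autosomal peaks of the same lists, and their intervals and p-values describe these lists and not the spread between embryo collections.

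Fer2 is a basic helix-loop-helix transcription factor of the Ptf1 family, known in the fly for its role in dopaminergic neurons and the clock circuit. Proteins of this class bind the E-box, CANNTG, usually as dimers. The X differs from the autosomes in copy number, because males carry a single X whose transcription is raised by the dosage compensation complex. Many fly genes sit head to head, with 2 transcription start sites (TSSs) on opposite strands sharing a promoter region. Whether X copy number affects the peak signal was not tested.

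The sequences at 5 of the 10 highest X summits are shown first, because they are rich in A and T, as X summits are in general; 4 of the 5 lie below the X median GC content of 30.7%. Each line gives the summit base and 50 bases on either side of it, on the forward strand of the RefSeq Release 6 assembly (dm6), 5′ to 3′, from a window outside any annotated untranslated region. E-boxes would stand in capitals, and these 5 windows hold none.
ph-p promoter (chrX:2137294-2137394): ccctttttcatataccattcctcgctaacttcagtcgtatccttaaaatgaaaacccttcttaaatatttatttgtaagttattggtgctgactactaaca
Gapdh2 promoter (chrX:15867940-15868040): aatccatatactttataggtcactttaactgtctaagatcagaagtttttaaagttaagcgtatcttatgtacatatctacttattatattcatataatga
CG32772 intron (chrX:4910326-4910426): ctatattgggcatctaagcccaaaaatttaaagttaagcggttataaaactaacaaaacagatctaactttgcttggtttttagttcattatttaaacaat
Tlk intron (chrX:3742170-3742270): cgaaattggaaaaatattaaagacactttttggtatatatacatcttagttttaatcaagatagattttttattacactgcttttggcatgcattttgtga
CHES-1-like intron (chrX:7706928-7707028): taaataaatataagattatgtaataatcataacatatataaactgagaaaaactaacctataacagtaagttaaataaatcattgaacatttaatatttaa

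The next windows come from 6 of the 25 highest X peaks, chosen because they hold an E-box, the only one of the 16 sequence words examined that passed the threshold between X and autosomal summits, a call that neither replicate list alone gave. Capitals mark the E-box; the rest is in lower case, and strand, build and window are as above.
lncRNA:CR44619 promoter (chrX:12751350-12751450): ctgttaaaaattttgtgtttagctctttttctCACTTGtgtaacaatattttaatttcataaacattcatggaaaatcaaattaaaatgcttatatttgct
norpA intron (chrX:4324935-4325035): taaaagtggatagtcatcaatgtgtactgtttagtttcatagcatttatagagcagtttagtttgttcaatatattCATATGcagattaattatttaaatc
Atf3 promoter (chrX:1275452-1275552): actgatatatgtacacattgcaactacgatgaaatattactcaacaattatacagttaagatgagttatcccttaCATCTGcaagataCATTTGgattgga
Ptpmeg2 promoter (chrX:9640765-9640865): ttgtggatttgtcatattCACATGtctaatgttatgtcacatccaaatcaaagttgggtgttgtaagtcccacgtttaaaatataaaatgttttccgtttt
Hex-A promoter (chrX:9585464-9585564): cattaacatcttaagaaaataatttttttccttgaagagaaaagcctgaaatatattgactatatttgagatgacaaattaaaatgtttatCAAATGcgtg
moody promoter (chrX:2050247-2050347): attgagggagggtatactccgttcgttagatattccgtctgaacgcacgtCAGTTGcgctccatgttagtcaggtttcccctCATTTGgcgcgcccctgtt

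GC content was 24.8% in the Gapdh2 window, 27.7% in the CG32772 window and 15.8% in the CHES-1-like window. The moody window, at 52.5%, was far from the X median of 30.7%. The Atf3 and moody windows hold 2 E-boxes each, and the other E-box windows printed hold 1. The form CACGTG, to which many clock-related basic helix-loop-helix dimers bind, was found at 1 of the 494 X summits (0.202%) and at 22 of 2368 autosomal summits (p adjusted over the 16 words = 0.572, Fisher's exact test, two-sided).

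The strongest X peak lay 25 bp upstream of a TSS of Ugalt (FBgn0024994), which encodes a UDP-galactose transporter, at chrX:2703694-2704085. Its signal value, a score from the authors' caller that serves here only for ranking within a list, was 1663 in the thresholded list, 634.0 in replicate 2 and 1040 in replicate 3. It ranked 4 in the thresholded list and 4 in the list of each replicate. The Polycomb group gene ph-p (polyhomeotic proximal) had a pair of peaks near its TSSs, 1 with its summit 489 bp upstream of the nearest TSS (rank 7; 13 in replicate 2 and 5 in replicate 3) and 1 with its summit 449 bp downstream (rank 30; 14 in replicate 2 and 40 in replicate 3). Gapdh2, a glycolytic dehydrogenase gene, followed with a summit 155 bp upstream of its TSS (rank 11; 12 in replicate 2 and 15 in replicate 3). The replicates placed these promoter peaks at similar heights, all within the first 40 of 30000 peaks in each list.

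Introns held 4 of the 10 highest X peaks. The intron peak of CG32772 lay 1274 bp downstream of the nearest TSS (rank 14; 17 in replicate 2 and 13 in replicate 3). Tlk, which encodes a Tousled-like kinase involved in chromatin assembly, had its highest peak in an intron 2323 bp downstream of a TSS (rank 23; 21 in replicate 2 and 22 in replicate 3). In norpA, the phospholipase C gene of phototransduction, the summit lay 1376 bp downstream of a TSS (rank 34; 57 in replicate 2 and 27 in replicate 3). In CHES-1-like, a forkhead transcription factor gene, it lay inside the gene, 2015 bp upstream of the nearest protein-coding TSS and 797 bp from the TSS of lncRNA:CR43287 (rank 40; 60 in replicate 2 and 34 in replicate 3). The remaining peak of the first 5 lay 467 bp from the TSS of the long non-coding RNA gene lncRNA:CR44619 (rank 15; 8 in replicate 2 and 21 in replicate 3). Its summit was inside another long non-coding RNA gene, lncRNA:Vinr. The nearest protein-coding TSS to that summit, that of CG4004, was 5083 bp away, and a second peak 493 bp from a TSS of lncRNA:CR44619 ranked 70.

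The rest of the 25 highest X peaks covered genes of several kinds. All 25 were overlapped by a peak of each replicate, for which the authors' threshold selects. Transcriptional regulators were Atf3, a bZIP factor (rank 37), bbx, an HMG-box gene (rank 94), gce, a basic helix-loop-helix receptor for juvenile hormone (rank 104), and NFAT (rank 129). The gene bbx is annotated over the same span as waw, and the summit lay inside both. Nervous system genes were elav, the pan-neuronal RNA-binding protein gene, with a summit 239 bp upstream of its TSS inside the gene arg (rank 61), and moody, a receptor gene of the glial blood-brain barrier (rank 116). The others were CG3726 (rank 44), MFS10, a major facilitator superfamily transporter gene (rank 72), the tyrosine phosphatase gene Ptpmeg2 (rank 78), the hexokinase gene Hex-A (rank 111), Tis11, whose product binds AU-rich mRNAs (rank 113), TRAM (rank 132), CG8034 (rank 141), CG3009 (rank 154) and CG2865 (rank 170). Of the 25, 18 were promoter peaks and 7 intron peaks, and 8 held an E-box. The lowest rank that any of the 25 had was 247 in replicate 2, at TRAM, and 268 in replicate 3, at CG2865.

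Signal ranks of X peaks were spread over the whole list. The signal value was above the list's median at 251 X peaks (50.8%) and at 49.8% of autosomal peaks, a difference of 0.979 percentage points (95% interval -3.86 to 5.80, p = 0.729, Fisher's exact test, two-sided). The 286 highest peaks of the list held 52 X peaks (10.5%) and 9.88% of autosomal peaks (p = 0.680 before adjustment, Fisher's exact test). Of the X peaks, 490 (99.2%) were overlapped by a peak of each replicate, and so were 99.5% of autosomal peaks. The authors' threshold selects peaks that agree between these replicates, so high shares were set in advance and are no separate evidence. The 4 exceptions on X were a CHES-1-like intron peak (rank 464) and a peak nearest CG3309 (rank 2757), which replicate 2 lacked, and peaks nearest CG16952 (rank 1196) and caz (rank 1769), which replicate 3 lacked. X peaks had a median rank of 1508 in replicate 2 and 1390 in replicate 3, against 1413 in replicate 2 and 1408 in replicate 3 for autosomal peaks. At the weak end, the last 3 X peaks inside the threshold had signal values of 76.1, 76.0 and 75.7, and the first 3 outside had 75.5, 75.1 and 74.9.

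**Figure D1:**
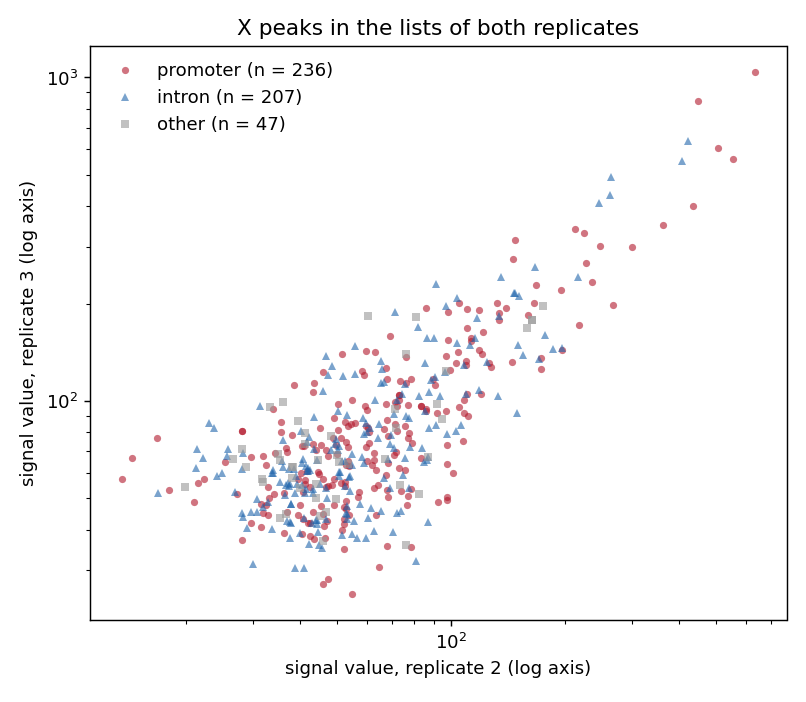
Signal value of the thresholded X peaks in the list of replicate 3 (vertical, log axis) against that in replicate 2 (horizontal, log axis), with 1 point per peak overlapped in both lists and colour and shape giving the location of the summit. The highest point is the Ugalt promoter, at 634.0 in replicate 2 and 1040 in replicate 3. The highest intron peak, in CG32772, is at 422.2 in replicate 2 and 635.4 in replicate 3, and promoter and intron peaks overlap from there down.

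X summits lay in promoters less often, and in introns more often, than autosomal summits. A summit at most 500 bp from a TSS was classed as promoter; the others were classed by what the annotation holds at the summit, with exon classes (5′ and 3′ untranslated region or UTR, coding sequence, non-coding exon) going before intron and intron before intergenic. Promoters held 238 of the 494 X summits (48.2%, 95% Wilson interval 43.8 to 52.6) and 1433 of the 2368 autosomal summits (60.5%), 12.3 percentage points fewer on X (95% interval of the difference, X minus autosomes, -17.1 to -7.51; adjusted p over 7 locations = 1.75e-06, Fisher's exact test, two-sided). Introns held 209 X summits (42.3%) and 657 autosomal summits (27.7%), 14.6 points more on X (9.90 to 19.3, adjusted p = 3.32e-09 by the same exact test). Intergenic summits made up 6.48% on X and 9.92% on autosomes (adjusted p = 0.0396, Fisher's exact test), a call that was lost in the replicate 2 list (adjusted p = 0.0867), in the 1431 highest peaks (0.0618), in the 1431 lowest (0.474) and with each host gene of intron summits counted once (0.115). Few X summits fell elsewhere, with 4 in a 5′ UTR, 7 in a 3′ UTR, 4 in a non-coding exon and 0 in coding sequence (95% Wilson upper bound 0.772%).

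The promoter difference was found against each large autosomal arm and in each replicate. Promoters held 62.8% of the summits on 2L, 61.1% on 2R, 57.2% on 3L and 61.0% on 3R, and the X share was below each of these (adjusted p = 0.00391 for 3L, the closest arm, Fisher's exact test). The intron share was 24.8% on 2L, 28.3% on 2R, 28.3% on 3L and 29.6% on 3R, all below X (adjusted p = 6.41e-06 for 3R, the closest arm, Fisher's exact test). Among the 2862 highest peaks of the replicate 2 list, 48.3% of X summits and 59.7% of autosomal summits lay in promoters. In the replicate 3 list the promoter shares were 48.7% on X and 60.9% on autosomes. These lists largely recount the same peaks. Of the 494 thresholded X peaks, the 2862 highest held 415 in replicate 2 and 443 in replicate 3. The annotation itself differs less, since positions classed as promoter made up 12.6% of the length of X and 13.8% of that of the autosomes, and introns 43.3% of X and 38.6% of the autosomes.

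Among weaker peaks no promoter difference was found. The 26695 pooled peaks that overlapped no thresholded peak, called the other pooled peaks here, lay in promoters at 25.5% on X and 25.3% on autosomes (adjusted p = 0.831 by Fisher's exact test, difference 0.268 points, -1.16 to 1.73). The X-to-autosome odds ratio of promoter location was 0.598 times as large among thresholded as among other pooled peaks (adjusted p of the interaction = 8.67e-06, logistic regression over n = 29557 peaks). Introns held 50.6% of the other pooled peaks on X and 43.3% on autosomes, and the odds ratio was 1.43 times as large among thresholded peaks (adjusted p = 0.00272, n = 29557 peaks). Intergenic peaks were fewer on X in both lists, and the ratio of 1.01 between them did not depart from 1 (adjusted p = 0.953, n = 29557 peaks).

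**Figure D2:**
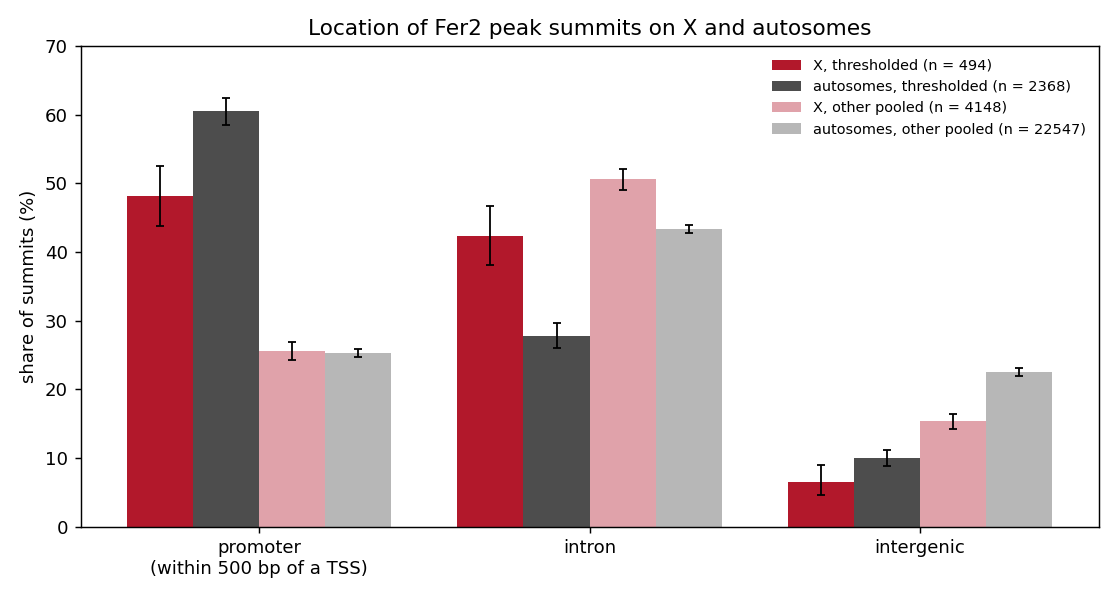
Share of summits (vertical, %) in promoters, introns and intergenic sequence for thresholded peaks on X and autosomes (solid bars) and for the other pooled peaks on X and autosomes (pale bars), with 95% Wilson intervals. Among thresholded peaks the promoter share was 48.2% on X and 60.5% on autosomes, whereas among the other pooled peaks the shares were 25.5% on X and 25.3% on autosomes.

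The promoter difference lay in the classes nearest a TSS. Summits within 100 bp of a TSS made up 12.3% of X peaks and 21.5% of autosomal peaks, and those at 100 to 250 bp made up 23.1% on X and 28.1% on autosomes. Beyond 250 bp and up to 5000 bp the X shares were the larger ones in each distance class. Among promoter summits the median distance to the nearest TSS was 164 bp on X and 128 bp on autosomes. Of summits within 500 bp of a protein-coding TSS, 84.1% on X and 85.3% on autosomes lay upstream (difference -1.20 points, -6.82 to 3.44).

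**Figure D3:**
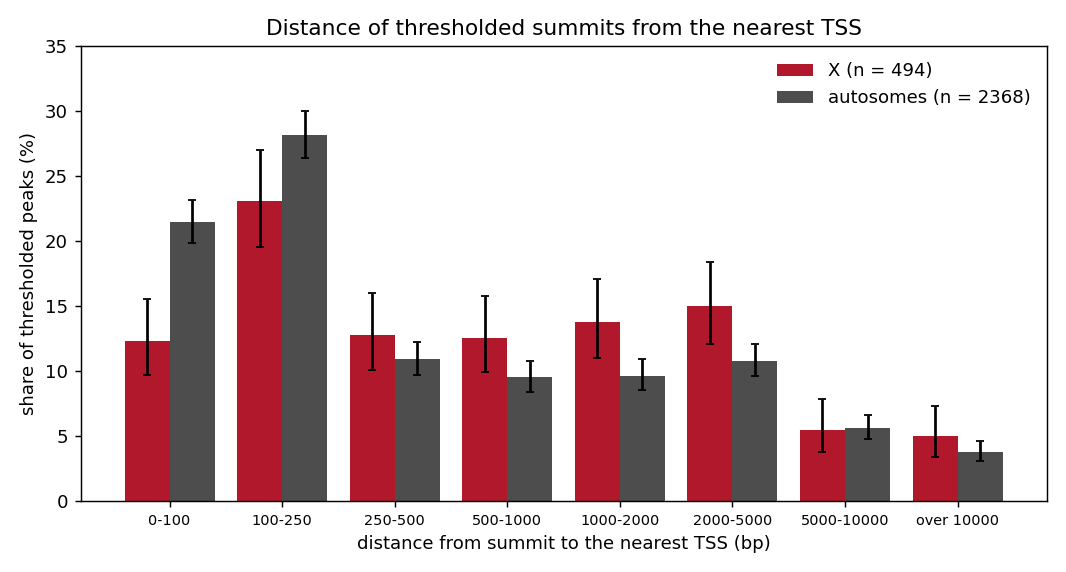
Share of thresholded peaks (vertical, %) by distance from summit to nearest TSS (horizontal, classes in bp) on X and autosomes, with 95% Wilson intervals. The class within 100 bp holds 12.3% of X peaks and 21.5% of autosomal peaks, and the classes from 500 to 5000 bp hold larger shares on X.

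Promoter summits on X less often had TSSs on both strands. Among promoter summits, 73 of 238 on X (30.7%) and 655 of 1433 on autosomes (45.7%) had TSSs of both strands within 500 bp (odds ratio 0.526, adjusted p over 2 promoter properties = 3.04e-05, Fisher's exact test, two-sided). The share was 45.3% on 2L, 43.2% on 2R, 44.1% on 3L and 49.9% on 3R. The other pooled promoter peaks went the other way, at 212 of 1059 on X and 16.4% on autosomes (p = 0.00493, Fisher's exact test), and the interaction between list and chromosome had an odds ratio of 0.412 (p = 2.69e-07, logistic regression over n = 8426 peaks). The highest-ranked X peaks of this kind were at bves (rank 275), CG2004 (rank 306), ND-ASHI, a subunit gene of respiratory complex I (rank 320), and Rtel1, a helicase gene (rank 341), so none was among the 25 highest; these 4 were picked after their values were seen.

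A contrast of the same direction was found when genes were counted in place of peaks. Protein-coding genes with an opposite-strand TSS up to 1 kb upstream were about as common on X, where they were 856 of 2196 (39.0%), as on autosomes (39.7%, difference -0.768 points, -2.97 to 1.47, p = 0.506, Fisher's exact test). A thresholded summit within 500 bp of an own TSS was present at 174 of these 856 X genes (20.3%) and at 30.7% of the 4670 such autosomal genes (odds ratio 0.576, adjusted p = 6.62e-10, Fisher's exact test). Among the remaining genes it was present at 109 of 1340 on X (8.13%) and at 7.12% on autosomes (difference 1.01 points, -0.469 to 2.70, p = 0.188, Fisher's exact test). The interaction had an odds ratio of 0.499 (p = 1.09e-06, logistic regression over n = 13945 genes). Head-to-head neighbours share a peak and so are not independent, and the p-values over genes are too small for that reason. This comparison and that of both-strand promoters were added after the location shares had been seen.

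**Figure D4:**
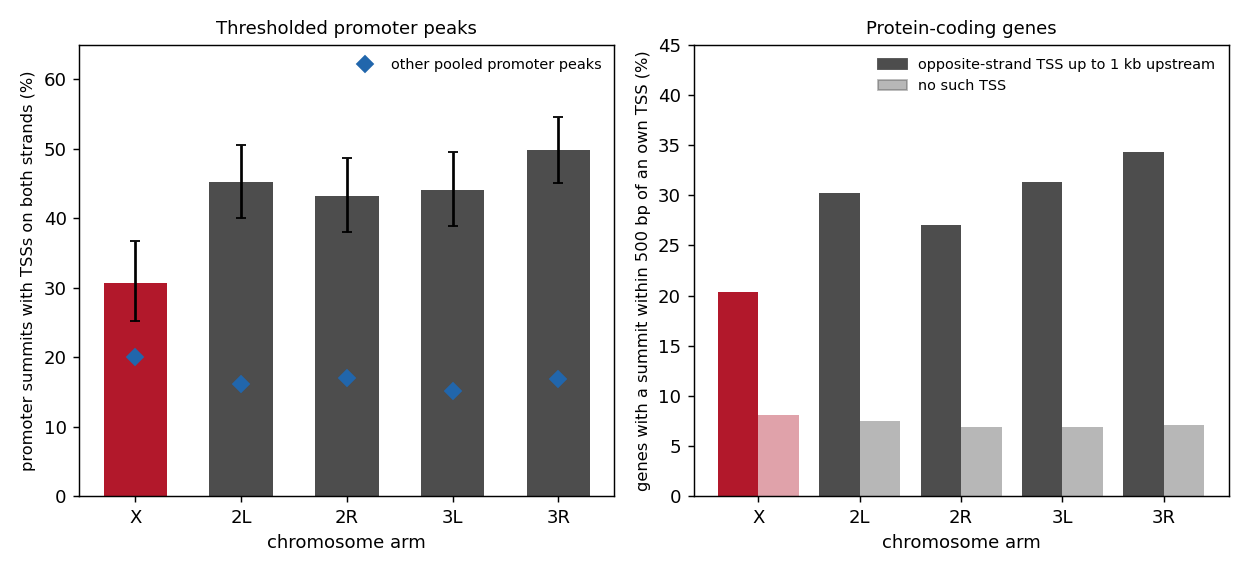
Left, share of thresholded promoter summits with TSSs on both strands within 500 bp (vertical, %, bars with 95% Wilson intervals) by chromosome arm, with diamonds for the other pooled promoter peaks. Right, share of protein-coding genes with a thresholded summit within 500 bp of an own TSS (vertical, %) for genes with and without an opposite-strand TSS up to 1 kb upstream; X (red) has the lowest solid bar in both panels, at 30.7% and 20.3%, and the fourth chromosome, with 6 promoter summits, is not drawn.

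A summit in the gene or within 1 kb was found for 474 of 2196 protein-coding X genes (21.6%) and for 23.4% of 11749 autosomal genes (p = 0.0647, Fisher's exact test, two-sided), where 23.1% of all 13945 genes had one. By place the X departed in opposite directions. Summits within 500 bp of an own TSS occurred at 12.9% of X genes and 16.5% of autosomal genes (adjusted p = 1.76e-05, Fisher's exact test). Neighbouring genes can share a summit here too, so that p-value is too small. This comparison is also not separate from that of both-strand promoters, which made up 45.7% of promoter summits on autosomes and 30.7% on X. Summits inside a gene but more than 500 bp from any TSS occurred at 6.60% of X genes and 4.30% of autosomal genes (adjusted p = 1.45e-05, Fisher's exact test). The number of genes called therefore depends on the definition: counting the gene body alone gave an odds ratio of 1.35 for X (p = 0.000162, Fisher's exact test), a 5 kb margin gave 0.841 (p = 0.000307), and the replicate 3 list gave 0.864 with the 1 kb margin (p = 0.00921).

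Several intron summits could share a host gene, on X as on autosomes. Of the 209 on X, 205 lay in 133 protein-coding host genes, and 37 of these hosts held 2 or more. Taken over intron summits, the median span of the host gene was 27048 bp on X and 23783 bp on autosomes. A host with several summits was counted once for each of them. Counting each host gene once left 137 of the 209 intron summits on X and 463 of the 657 on autosomes, which were 32.5% of the summits kept on X and 21.3% of those on autosomes, and the promoter shares became 56.4% on X and 65.9% on autosomes (adjusted p for intron 1.02e-05 and for promoter 0.000843, Fisher's exact test). On the median, the X intron summits lay 2067 bp from the nearest TSS, against 2134 bp on autosomes.

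CG1677, whose gene spans 124.7 kb, had the most summits of any protein-coding X gene with 13, of which the highest, 282 in rank, lay at a promoter nearest the TSS of CBP. The long non-coding RNA gene lncRNA:CR44357, which overlaps it, held 14. CHES-1-like held 11 within a gene of 27.0 kb, from rank 40 to rank 2212. Tlk held 7, at ranks 23 to 1301. Raf, the kinase gene of the MAP kinase cascade, also held 7, at ranks 189 to 2803, and a single replicate peak underlay 2 of these. The 7 summits of kirre, an adhesion molecule gene of myoblast fusion, lay in a gene of 394 kb, with the highest at rank 606. Of the 369 X genes with 1 summit and the 105 with more, these 5 were chosen by number of summits alone.

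The highest peaks of the rarer location classes lay at single genes. In 5′ UTRs these were baz, the Par-3 polarity gene (rank 178), Raf (rank 1041) and CG15247 (rank 1455). In 3′ UTRs they were CG7872 (rank 507), APC7, beside pigs (rank 545), and stas (rank 738). The non-coding exon peaks were led by 1 nearest Paics (rank 396), 1 nearest CG7065 (rank 1865) and 1 nearest Hex-A (rank 1956). The highest intergenic peaks lay 805 bp upstream of ph-d, the tandem duplicate of ph-p (rank 226), 515 bp upstream of CG17896 (rank 234) and 1319 bp upstream of CG3149 (rank 434).

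Gene lists for the X were chosen with earlier results of these data known and are described by counts beside the 23.1% of all genes, with no test. That share is for a summit in the gene or within 1 kb. Within 500 bp of an own TSS it was 12.9% of X genes and 16.5% of autosomal genes. Of the 14 cytoplasmic ribosomal protein genes on X, 12 had a summit in the gene or within 1 kb, and 11 had one within 500 bp of an own TSS. The highest were RpS28b (rank 479), RpS10b (rank 533), RpS15Aa (rank 1050), RpL22 (rank 1125), RpS19a (rank 1292) and RpL17 (rank 1392), whereas RpL7A and RpS6 had none. On autosomes 53 of 78 (67.9%) had one. RpS14a and RpS14b, named here only because they are neighbours with near-identical sequence, share 1 peak, 53 bp upstream of RpS14b. Of the 11 mitochondrial ribosomal protein genes on X, 2 had one (18.2%), a share near that of all genes. These were mRpS30 and mRpS25, neither within 500 bp of an own TSS, and mRpL14, mRpL16, mRpL22 and mRpL3 were among the 9 without. On autosomes 31 of 62 had one (50%), and the X and autosomal shares were not tested against each other.

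Of 10 X genes of dosage compensation and sex determination, 1 had a summit: Sxl, the splicing switch of the female pathway, with its summit 402 bp downstream of a TSS (rank 831; 546 in replicate 2 and 1319 in replicate 3). None was found in or within 1 kb of the RNA genes lncRNA:roX1 and lncRNA:roX2, of mof, the acetyltransferase gene of the complex, or of sisA, an X-counting gene. On autosomes 2 of 11 such genes had one. Of 3 clock genes, sgg, the GSK-3 kinase gene, had a summit 224 bp upstream of a TSS (rank 363), and per and CkIIbeta had none.

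Neuronal genes had a summit in 9 of 18 cases, and 4 of the 18 had one within 500 bp of an own TSS, as did 12.9% of all protein-coding X genes. Gene length was not taken into account in these counts. The 6 highest were elav, norpA, dnc, a phosphodiesterase gene of memory mutants, with a summit 341 bp upstream of a TSS (rank 214), shakB, an innexin gene, whose nearest peak lay within 1 kb of the gene (rank 1436), comt, the NSF gene of vesicle fusion (rank 1548), and Imp (rank 1892). The shakB summit lay 27595 bp from the nearest TSS of that gene. Appl, para, nAChRalpha7 and cac, which encode an amyloid precursor relative and ion channel subunits, were among the 9 without. Chromatin regulators had one in 7 of 16 cases, namely ph-p, ph-d, nej, a histone acetyltransferase gene (rank 311), HP1b (rank 1276), fs(1)h, a BET protein gene (rank 1440), e(y)2 (rank 1502) and, last of the 7, Top1 (rank 1998). The Top1 peak, singled out after its values were seen, had rank 10658 in replicate 2 and 1217 in replicate 3. Chromatin genes without one included trr, e(y)3, wapl and mof, and 4 of the 16 had a summit within 500 bp of an own TSS.

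Developmental transcription factor genes had a summit in 6 of 33 cases (18.2%), a share near that of all genes. They were gce, Hr4, a nuclear receptor gene with its highest peak in an intron (rank 271), Bx (rank 1108), usp, the ecdysone receptor partner (rank 1407), bi (rank 2035) and ct (rank 2413). The proneural genes ac, sc, l(1)sc and ase, themselves basic helix-loop-helix genes, had none. Signalling genes had one in 5 of 16 cases: Raf, sgg, brk, a repressor of Dpp targets (rank 797), N, the Notch receptor gene (rank 1243), and sog, a BMP antagonist gene (rank 1983); dx, arm, dsh and hop had none. Polarity and junction genes had one in 7 of 9 cases, led by baz, par-6 (rank 610), dlg1 (rank 1193), Inx2 (rank 1362), the integrin gene mew, which shares the comt peak (rank 1548), and if (rank 2270), while arm and ogre had none. The summit at Inx2 lay 5641 bp, and that at if 29091 bp, from the nearest TSS of that gene. Within 500 bp of an own TSS, a summit lay at 1 of the 33 developmental, 1 of the 16 signalling and 3 of the 9 polarity and junction genes. The share by this measure was 12.9% of all protein-coding X genes.

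Housekeeping enzyme and cytoskeleton genes had a summit in 5 of 15 cases, which were Gapdh2, Zw (rank 435), sqh (rank 630), Moe (rank 874) and Act5C (rank 1157); Pgd, Cdc42, ctp and flw had none. Among classical marker genes 4 of 15 had one (ec at rank 1129, sn at rank 1452, car at rank 2116, and ct), and y, w, rb and cv did not. Of 8 yolk and chorion genes, Yp3 alone had a summit in range, 2957 bp from its TSS (rank 1252), and Yp1, Yp2, Cp36 and Cp38 had none. No summit was found at any of the 7 cuticle protein genes or the 25 chemoreceptor genes on X, among them Cpr11A, Cpr11B, Cpr12A, Cpr5C, Gr10a, Gr10b, Gr2a and Gr5a. The autosomal counts were 2 of 112 and 8 of 154.

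X peaks were about as dense as autosomal peaks. There were 21.0 per Mb on X, against 23.0 on 2L, 21.6 on 2R, 20.6 on 3L and 21.6 on 3R, and 22.5 per 100 protein-coding genes against 19.1 to 21.1 on these arms. The X held 17.6% of the length of the 6 arms and 15.7% of their protein-coding genes. Thresholded and other pooled peaks together numbered 4642 on X, of which 494 (10.6%) were thresholded, against 9.50% on autosomes (odds ratio 1.13, p = 0.0174, Fisher's exact test, two-sided). The other pooled peaks were sparser on X, at 176 per Mb against 204 per Mb. Set against arm length the odds ratio was 0.978 (p = 0.673, Fisher's exact test), so the direction of this comparison depends on what the peaks are set against. In the replicate 2 list the odds ratio, for its 2862 highest peaks against the other peaks of that list, was 1.10 and did not pass (p = 0.0682, Fisher's exact test).

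Along the X the peaks were uneven. The first 20 Mb held 473 of them, with 9 to 42 per 1-Mb bin, and the remaining part of the arm toward the centromere held 21. The bin from 7 to 8 Mb had the most, 42, of which 28 were intron peaks, and it includes CG1677 and CHES-1-like. The other pooled peaks also thinned toward the centromere, with a median of 200 per bin in the first 20 Mb and 58 beyond. Protein-coding genes were fewer there too, at 2001 in the first 20 Mb and 195 beyond, which these counts do not take into account. Another thresholded summit lay within 5 kb of 42.9% of X summits and 43.4% of autosomal summits.

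The centre of X peaks was as rich in A and T as that of autosomal peaks, and the shoulders were less so. GC content within 50 bp of the summit averaged 32.4% ± 8.58 on X (SD, n = 494 peaks) and 32.4% ± 9.45 on autosomes (SD, n = 2368 peaks). It lay above the list's median at 49.6% of X and 48.4% of autosomal summits (p = 0.656, Fisher's exact test, two-sided). Within 150 bp it averaged 37.8% ± 6.11 on X and 36.2% ± 5.96 on autosomes (SD over peaks), and 57.7% of X and 46.0% of autosomal peaks were above the median (odds ratio 1.60, adjusted p = 3.71e-06, Fisher's exact test). Among promoter peaks the shares were 58.0% on X and 41.2% on autosomes (adjusted p = 3.71e-06, Fisher's exact test), and outside promoters the shares were 57.4% on X and 53.4% on autosomes (adjusted p = 0.258). The other pooled peaks went the other way, with 42.5% on X and 49.5% on autosomes above their median (adjusted p = 5.85e-16, Fisher's exact test). The arms themselves had a GC content of 42.5% for X and 42.1% for autosomes.

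**Figure D5:**
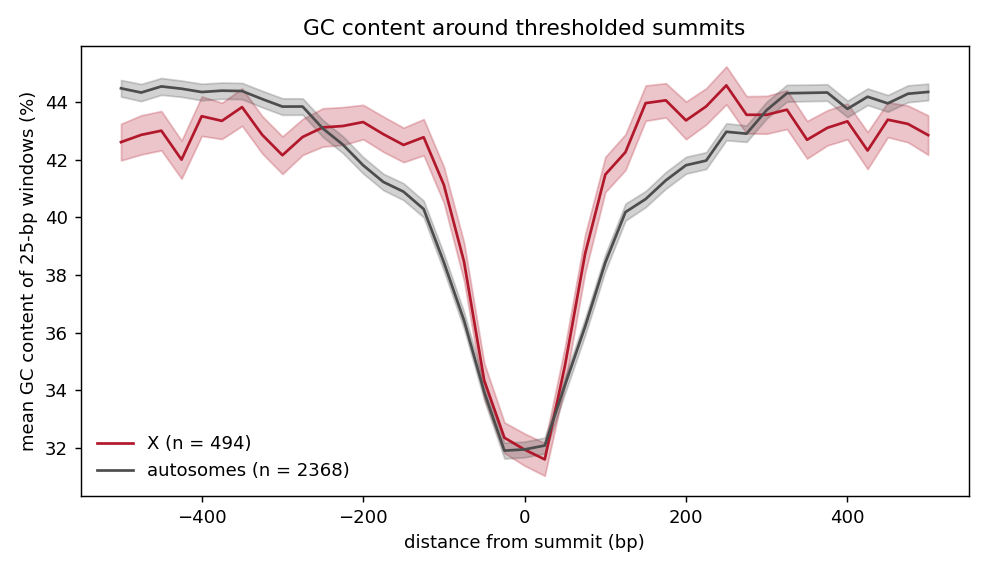
Mean GC content (vertical, %) of 25-bp windows by distance from the summit (horizontal, bp) for thresholded peaks on X and autosomes, with bands of 1 standard error over peaks; the vertical axis does not start at 0. Both curves fall to 31.9% at the summit, and at 100 bp on either side X is at 41.1% and 41.5% and the autosomes are at 38.4%, so the trough is narrower on X.

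E-boxes were found within 50 bp of 189 X summits (38.3%, 95% interval 34.1 to 42.6) and of 739 autosomal summits (31.2%), a difference of 7.05 points (2.46 to 11.8; adjusted p over 16 words = 0.0415, Fisher's exact test, two-sided). The call was lost in the 2862 highest peaks of either replicate list (adjusted p = 0.379 in replicate 2 and 0.0673 in replicate 3, Fisher's exact test) and within 25 bp (adjusted p = 0.359). The other pooled peaks held an E-box at 39.1% on X and 41.1% on autosomes, so the X share among thresholded peaks was close to that of weaker X peaks, and it was the autosomal share that lay lower (interaction odds ratio 1.49, p = 0.000255, logistic regression over n = 29557 peaks). In flanks centred 250 bp to the right of the summit the shares were 39.5% on X and 39.7% on autosomes. By location, promoter summits held one at 39.1% on X and 28.3% on autosomes (adjusted p over 3 strata = 0.00299, Fisher's exact test), and summits outside promoters at 37.5% on X and 35.6% on autosomes (adjusted p = 0.911). The difference between these locations had an interaction p of 0.0506 (logistic regression over n = 2862 peaks).

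In the thresholded list the E-box share was larger on X among promoter summits of both kinds. With TSSs on both strands, 38.4% of 73 X summits and 24.9% of autosomal summits held one (adjusted p = 0.0336, Fisher's exact test, two-sided). With TSSs on a single strand, 39.4% of 165 X summits and 31.2% of autosomal summits did (adjusted p = 0.0448, Fisher's exact test). This split was made after the location shares had been seen and was not repeated in the list of either replicate. Promoter summits of the other pooled peaks held an E-box at 37.1% on X and 39.6% on autosomes (p = 0.141, Fisher's exact test). None of the other 15 words passed the threshold between X and autosomes. The closest by p was GAGAG, the repeat bound by the GAGA factor, at 6.07% of X and 9.21% of autosomal summits (adjusted p = 0.179, Fisher's exact test).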

How the data were processed

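Fer2-GFP was immunoprecipitated from whole embryos with an antibody against GFP, after sonication to 200 to 800 bp, per the labels. The authors deposited peak lists on dm6 for replicate 2, for replicate 3, for the pooled alignments (30000 peaks each) and 1 thresholded by the irreproducible discovery rate (IDR, 2862 peaks). Text files deposited with the lists say that the same control was used throughout. Neither the peak caller with its settings nor the IDR threshold is stated (not given in the sources used here). A signal value per peak and a q-value as −log10 stand in every deposited list. The authors' signal value was used only to rank peaks within a list, and the −log10 q-value, equal at all thresholded peaks, was not used to rank. The lists give no counts of reads, so depth and its precision are unknown.

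From these, each summit was assigned to a location with the Ensembl annotation (release 115) and to sequence of RefSeq Release 6. A pooled peak that overlapped a thresholded peak by 1 bp or more was taken out of the other pooled peaks. Shares were compared by Fisher's exact test (two-sided), adjusted by Benjamini-Hochberg within each family, with 95% Wilson intervals and Newcombe intervals of differences, and lists by logistic interaction terms, at a threshold of 0.05. Words were looked for in both orientations in the 50 bp to either side of a summit. Python 3.11.15, numpy 2.4.6, pandas 2.3.3, scipy 1.17.1, statsmodels 0.14.6 and matplotlib 3.10.9 were used. The tests were tested on simulated data in which each peak was drawn independently. That check does not cover peaks that lie close together or genes that share a peak. The named genes were those nearest the 25 highest X peaks found in both replicates, the 3 highest peaks per location, the 5 genes with most summits, and up to 6 members with and 4 without a peak per gene list. The X peaks and the 14 gene lists were chosen with earlier results of these data known. The genes Caki and e(y)1 were not found under these symbols. Alternatives changed the TSS window, the list (each replicate, the 1431 highest peaks), the summit window, the gene margin and the set of arms.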

Additional observations from a re-analysis of the deposited data

How the results depend on the processing

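The lower promoter share, the higher intron share and the lower share of both-strand promoters on X kept their direction and their call under every alternative run for them, which were each replicate's list, other TSS windows, the 1431 highest peaks and the arms without the fourth chromosome, and for the first 2 also the lowest 1431 peaks, repeated intervals counted once and each host gene counted once. The last 3 settings, the flanks for GC content and all settings for both-strand promoters were added after seeing the data. The list of each replicate holds largely the same X peaks as the thresholded list and is not independent of it. With a 250 bp TSS window, 5 locations passed in place of 3. For the other results the odds ratio of X against autosomes changed more, and the cause was not tested. Leaving out a replicate gave 0.636 to 0.665 for intergenic location, 1.10 to 1.26 for passing the threshold (both lost their call in the replicate 2 list), 0.938 to 1.01 for signal, 0.864 to 0.907 for genes with a summit (now past the threshold in the replicate 3 list) and 1.22 to 1.34 for the E-box, with 0 of 16 words passing either time. In the 1431 highest peaks they were 0.512 for intergenic location (no longer past the threshold), 0.936 for signal, 1.35 for GC content (now past the threshold), 0.859 for genes (now past it) and 1.52 for the E-box, which no longer passed (0 words). Intergenic location also lost its call in the lowest 1431 peaks (0.720) and with each host gene once (0.677). The E-box lost its call within 25 bp (1.29) and outside promoters (1.08), with 0 words passing in each. Set against TSSs, passing the threshold gave 1.02, and against length 0.978. Signal in replicate 2 gave 0.925. GC content within 150 bp gave 1.60, outside promoters 0.854 and in the left flank 0.922. Genes by body alone gave 1.35 and with 5 kb 0.841, both past the threshold in opposite directions, and by the nearest TSS 1.04. No paired analysis was possible because the 2 replicates form a single group and the lists hold no second group to pair with. Precision is limited by the number of peaks, since the lists give no depth.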

Other observations

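The share of CA repeats beside the summits was larger on X in both flanks, and the difference passed the threshold in the left flank only. Left and right follow the forward strand of the assembly. The word CACACA was found at 6.28% of X summits and 6.21% of autosomal summits. In the flank centred 250 bp to the left of the summit it was found at 17.0% on X and 10.7% on autosomes (odds ratio 1.71, adjusted p over 16 words = 0.00259, Fisher's exact test, two-sided). In the flank to the right it was found at 15.0% on X and 10.3% on autosomes (odds ratio 1.53, adjusted p = 0.0725, Fisher's exact test). The other pooled peaks held it at their summits at 10.2% on X and 9.84% on autosomes (adjusted p = 0.571, Fisher's exact test). Its share in the flanks of the other pooled peaks and along whole arms was not counted. Whether the flank difference is particular to thresholded peaks or holds along the X was therefore not tested. GAGAG was found in the right flank at 19.0% on X and 15.0% on autosomes (adjusted p = 0.134, Fisher's exact test), where the order was the opposite of that at the summit.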
